A study of Mus musculus with 24 samples.

Results

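Interferon-induced genes are described here in inguinal white adipose tissue, the fat depot under the skin of the groin, of mice fed a high fat diet. The set held 39 genes, and all 39 were found among the 17541 genes of the count table. The set was chosen by name as known targets of interferon, with earlier results of these data known, so no test was made over it. It was divided by textbook function into 16 antiviral effectors, 4 genes for sensors of foreign nucleic acid and their partner, 5 transcription factors, the brake Usp18 with 2 ADP-ribosyltransferases, 5 genes for the immunoproteasome and peptide transport, and 6 interferon-inducible GTPases.

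Interferons are signalling proteins that cells release on sensing viral or misplaced nucleic acid. Type I interferons bind their receptor, and the kinases Jak1 and Tyk2 then switch on a complex that contains Stat2 and Irf9 and binds promoter elements of the form GAAA, any 2 bases, GAAA, known as interferon-stimulated response elements. Type II interferon acts on a second element, TTCNNNGAA, known as the gamma-activated site. In adipose tissue, fat cells, vessel cells and resident immune cells can all carry these transcripts.

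RNA was measured in 24 libraries from wild-type C57BL/6J animals by sequencing from the 3′ ends of transcripts. Young CTRL (7 libraries) and Young BAM15 (6) came from mice aged 16 weeks, Aged CTRL (6) and Aged BAM15 (5) from mice aged 92 weeks. BAM15, an uncoupler of mitochondria, lets respiration run without ATP synthesis. The diet, which all 4 groups share, is known from the title of the series. The dose, route and length of treatment, what CTRL received and the sex of the animals could not be taken from the labels. Each library carries an ID of its own, but the labels do not say that every ID is a separate mouse, so p-values measure the spread between these samples.

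The depth was 8.62 to 21.9 M counts per library. All 5 adipocyte markers were present in every group, with summed levels of 14012 to 74545 CPM (counts scaled to a library total of 1 M). Libraries also differed within groups. The share of the mitochondrial transcript mt-Rnr2 was 0.257% or lower in Young CTRL 4, Aged CTRL 2 and Aged BAM15 libraries 2 and 5, but 0.722% or higher in the 20 others. In 11 libraries the 9 B cell markers, genes abundant in lymph nodes, had a mean log2 CPM above 2. These were 2 of 7 Young CTRL, 5 of 6 Young BAM15, 1 of 6 Aged CTRL and 3 of 5 Aged BAM15 libraries. Comparisons are therefore given also without these 4 libraries low in mt-Rnr2, and with B cell markers as a covariate, where this matters. Skeletal muscle markers, the sum of 4 genes, were highest in Young BAM15 3 (43624 CPM), Young CTRL 7 (39525 CPM) and Aged CTRL 1 (15307 CPM). Their group medians were 37.9 to 571 CPM, and the part of muscle in the values below was not tested.

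The promoters are shown first because such elements are the known sites through which interferon acts on its target genes. RefSeq windows on GRCm38.p6, from 250 bases before to 50 after a gene's start, were matched for 30 of the 39 genes, some with several starts. The run GAAA, 2 free bases, GAAA, sought on both strands (the other reads TTTC, 2 free bases, TTTC), stood in the windows of 15 of these 30 genes, or 50.0%. Of 27025 genes with such a window, 1079 (3.99%) held them. TTCNNNGAA, which reads the same on both strands, stood in those of 11 of the 30 genes (36.7%), against 2582 (9.55%) of all genes. Stretches of 50 bases before the start are printed for 7 genes described with values below, with the matched letters in capitals, to show how the element looks in 4 antiviral effectors and 3 GTPases.
Isg15, chr4:156200855-156200904, minus strand: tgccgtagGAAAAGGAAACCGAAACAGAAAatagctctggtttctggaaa
Ifit1, chr19:34640784-34640833, plus strand: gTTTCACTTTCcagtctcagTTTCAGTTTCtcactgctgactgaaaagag
Rsad2, chr12:26456543-26456592, minus strand: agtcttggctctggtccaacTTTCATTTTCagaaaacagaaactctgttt
Bst2, chr8:71537567-71537616, minus strand: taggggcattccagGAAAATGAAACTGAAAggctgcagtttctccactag
Igtp, chr11:58199502-58199551, plus strand: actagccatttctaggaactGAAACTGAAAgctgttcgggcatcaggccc
Irgm1, chr11:48871421-48871470, minus strand: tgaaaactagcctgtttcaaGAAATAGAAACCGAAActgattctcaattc
Gbp2, chr3:142620584-142620633, plus strand: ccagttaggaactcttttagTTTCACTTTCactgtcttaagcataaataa
Isg15 held 3 overlapping matches in this stretch, Ifit1, Bst2 and Irgm1 2 each, and Rsad2, Igtp and Gbp2 1 each. Each match is a run of letters and not a measured binding site. The windows of Irf7, Ifi44 and Oasl2 did not hold the GAAA element, which says only that these letters are not in this window.

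Across the 24 libraries the genes did not move as 1 block. Aged CTRL 6 had the highest level of its group for 17 of the 39 genes (43.6%, against 12.2% of all genes tested). Young CTRL 2 had the highest of its group for 16 (41.0%, against 8.12%). Young BAM15 1, which had the lowest B cell markers of its group, was lowest for 21 genes (53.8%, against 25.1%). Aged BAM15 1 was lowest for 15 genes (38.5%, against 17.1%) and highest for none. Aged CTRL 2 was both highest for 12 genes and lowest for 13, shares of 30.8% and 33.3% where all genes gave 31.4% and 40.9%.

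**Figure D1:**
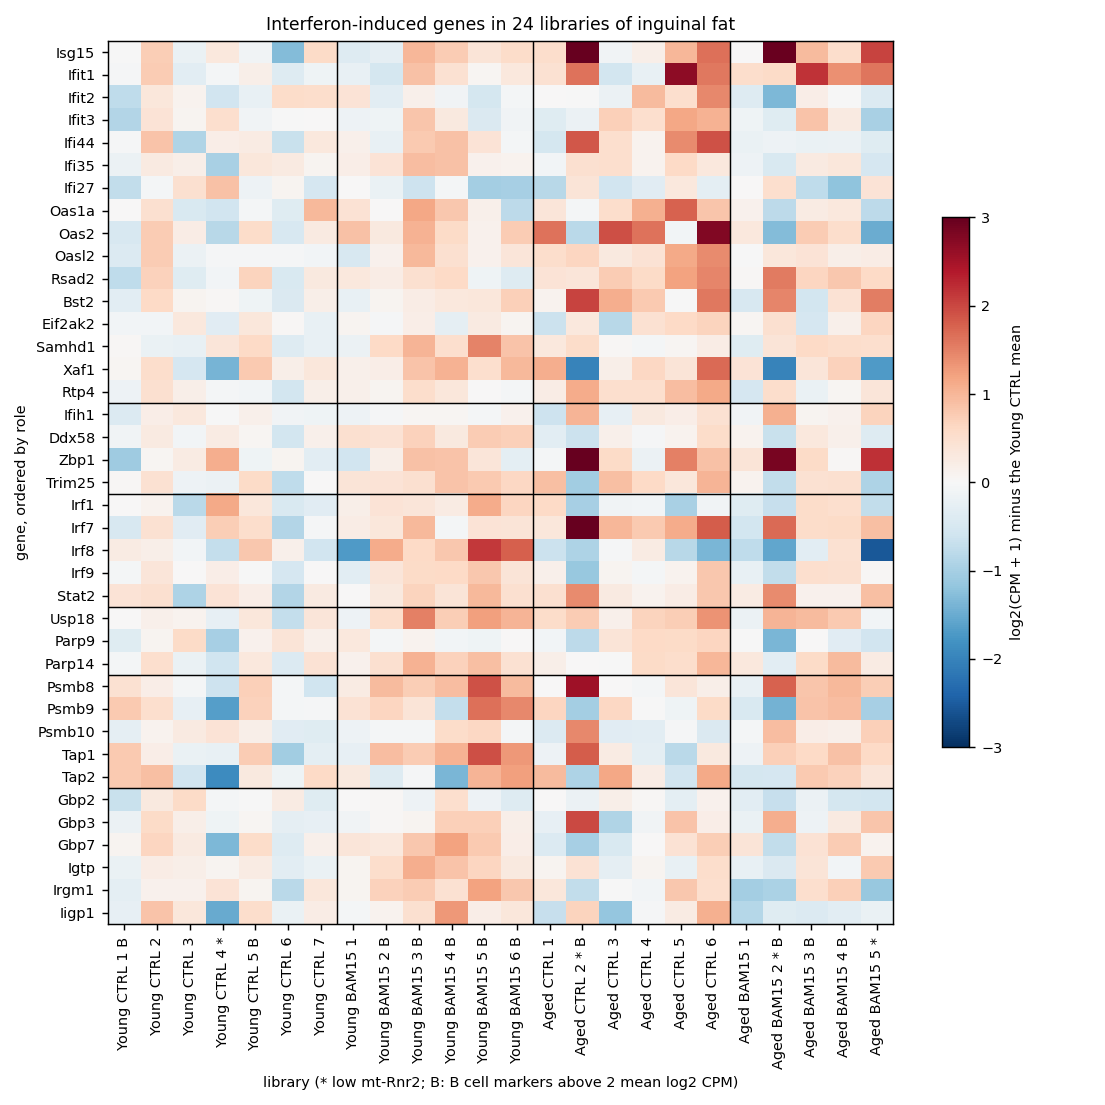
Each row is 1 of the 39 genes, ordered by role with lines between roles, and each column 1 of the 24 libraries, with lines between groups. Colour gives log2(CPM + 1) minus the Young CTRL mean, cut off at 3 either way. Aged CTRL 6 and the low mt-Rnr2 libraries (asterisk) Aged CTRL 2 and Aged BAM15 2 and 5 carry many of the strongest colours, while Young BAM15 2 to 6 (B, B cell markers above 2) are warm in the rows of Irf8, Psmb8 and Tap1.

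The first comparison asks how the genes differ with age in CTRL mice. Antiviral effectors had higher fitted levels in Aged CTRL than in Young CTRL for 15 of 16 genes, with a median log2 change of 0.77. Irf7, the transcription factor that drives interferon production, had a log2 change of 1.61 ± 0.40 (SE). The 6 GTPases had a median of 0.09 and the 5 transcription factors one of 0.07. None of the 39 genes passed edgeR's quasi-likelihood test at an adjusted p under 0.05, where 0.207% of the 15939 genes tested did. At an unadjusted p under 0.05 edgeR gave 12 of 39, all higher in Aged CTRL. Of all genes 4.56% were higher and 3.86% lower at that p, 8.43% in either direction. DESeq2 called 2 of the 39, Irf7 and Rtp4, where it called 1.15% of all genes. The limma-voom fit, here and below with a quality weight for each library, called 0, against 0.91% of all genes. Over the 39 genes, 33 had a positive log2 change (84.6%, against 46.5% of all genes), and the median was 0.38 against -0.04.

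Among the antiviral effectors, Ifi44, a cytoplasmic protein induced by type I interferon (GRCm38 position chr3:151730922-151749960), lay at 3.37 to 13.8 CPM in Young CTRL, with a median of 8.34. In Aged CTRL it lay at 4.67 to 29.7 CPM with a median of 15.7. Aged CTRL 2, 5 and 6, at 28.5, 20.8 and 29.7 CPM, stood above all Young CTRL libraries, and the other 3 overlapped them. The log2 change was 1.13 ± 0.37 (SE), with an adjusted p of 0.267 by edgeR. In bulk tissue a change in the number of cells that carry such a transcript and a change in RNA per cell cannot be told apart.

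Rtp4, a receptor transporter protein that restrains flaviviruses (chr16:23520291-23614222), lay at 16.3, 23.3 and 34.1 CPM as lowest, median and highest of Young CTRL. The same 3 values of Aged CTRL were 28.3, 40.7 and 54.9 CPM. Young CTRL 2 was the only Young CTRL library within the Aged CTRL range. The log2 change was 0.77 ± 0.21 (SE), the smallest p among the effectors, with an adjusted p of 0.148 by edgeR and of 0.0373 by DESeq2.

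Oas2, which makes the short adenylate chains that switch on RNase L (chr5:120730333-120749853), lay at 0.938 to 4.83 CPM in Young CTRL, with a median of 3.03. The 6 Aged CTRL libraries lay at 9.64, 0.989, 12.3, 9.78, 2.26 and 22.7 CPM. The 4 libraries at or above 9.64 CPM were above every Young CTRL library, while Aged CTRL 2 and 5 were within their range. The log2 change was 1.82 ± 0.62 (SE) with an adjusted p of 0.307. Without the 4 libraries low in mt-Rnr2, among which Aged CTRL 2 is the low one of its group, it was 1.91 ± 0.42 with an adjusted p of 0.0394, the only call that this reduced fit made among the 39 genes, where it called 0.477% of all genes.

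Isg15, a ubiquitin-like protein that is joined to other proteins during infection (chr4:156199424-156200818), lay at 4.08 to 19.9 CPM in Young CTRL (median 11.3) and at 10.6 to 115 CPM in Aged CTRL (median 20.4). Aged CTRL 2, at 115 CPM, held the highest value of all 24 libraries. The log2 change of 1.54 ± 0.52 (SE, adjusted p 0.302) became 0.71 without Aged CTRL 2.

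Ifit1, which binds viral RNA lacking the host cap (chr19:34640871-34650009), lay at 9.89 to 23.1 CPM in Young CTRL (median 12.8) and at 8.77 to 91.2 CPM in Aged CTRL (median 30.2). Aged CTRL 5, at 91.2 CPM, led. Aged CTRL 1 and 4 were within the Young CTRL range, and Aged CTRL 3 was below it. The fit gave a log2 change of 1.38 ± 0.42 (SE, adjusted p 0.21), and it was 0.85 without Aged CTRL 5. So a different library stood at the top for Isg15, Ifit1 and Oas2.

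Bst2, also named tetherin, which holds budding virus to the cell surface, had a median of 12.0 CPM in Young CTRL, against 23.4 CPM in Aged CTRL, and a log2 change of 1.15 ± 0.36 (SE, adjusted p 0.251). Oasl2, an oligoadenylate synthetase-like protein, had medians of 11.4 and 18.2 CPM and a log2 change of 0.80 ± 0.25 (adjusted p 0.216). Rsad2, or viperin, which makes a chain-terminating nucleotide, lay at 19.6 to 55.1 CPM in Young CTRL (median 31.7) and 43.9 to 94.4 CPM in Aged CTRL (median 53.9), a log2 change of 0.78 ± 0.27 (adjusted p 0.33). For all 3 genes the young and aged libraries overlapped. The remaining 8 antiviral effectors (Ifit2, Ifit3, Ifi35, Ifi27, Oas1a, Eif2ak2, Samhd1 and Xaf1) had unadjusted p values over 0.05 in this comparison. Oas1a rested on few reads and was at 0 in 3 libraries.

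**Figure D2:**
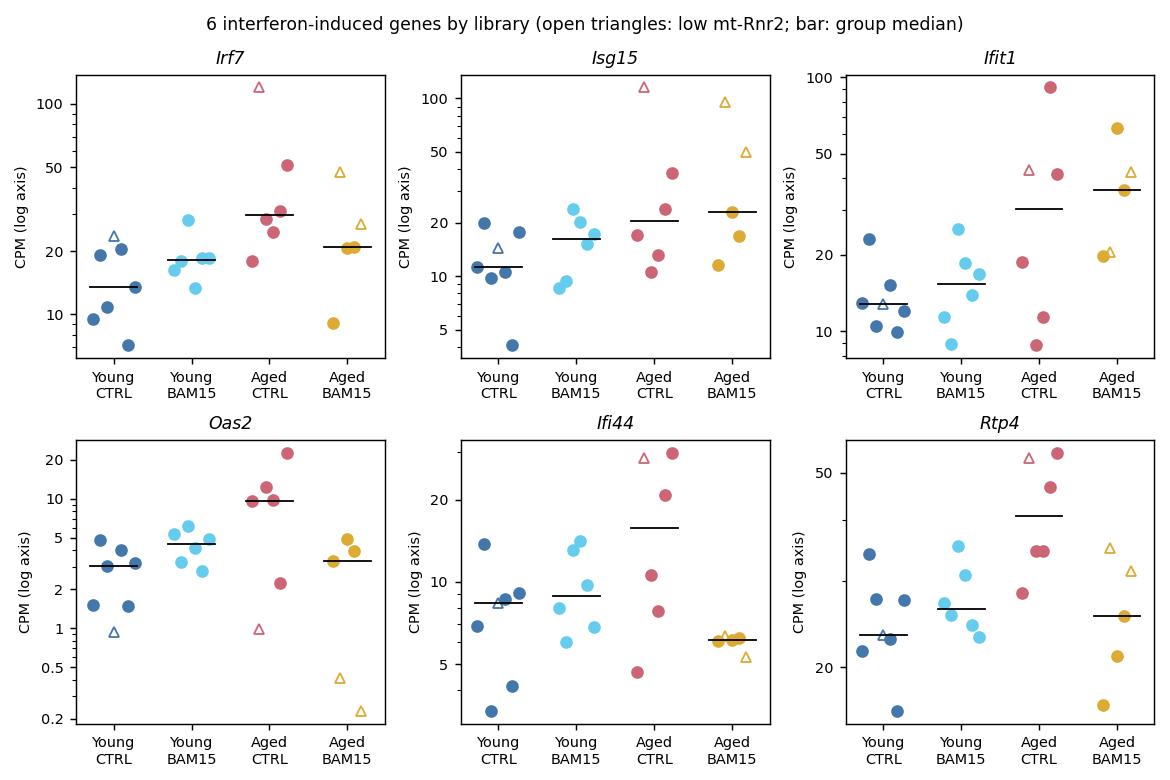
Levels of Irf7 and 5 antiviral effectors in CPM on log axes, 1 point per library in each of the 4 groups, with a bar at the group median and open triangles for the 4 libraries low in mt-Rnr2. Ifi44 in Aged BAM15 sits within 5.30 to 6.33 CPM, below 5 of 6 Aged CTRL libraries, while the highest Irf7 and Isg15 values of Aged CTRL are those of the low mt-Rnr2 library.

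Irf7 itself (chr7:141262706-141266481) lay at 7.12 to 23.6 CPM in Young CTRL, with a median of 13.5, and at 17.9 to 120 CPM in Aged CTRL, with a median of 29.7. Aged CTRL 2 and 6, at 120 and 51.2 CPM, were the highest, and Aged CTRL 1 alone was within the range of Young CTRL. The p of 0.000445 was the smallest among the 39 genes, and the adjusted p was 0.102 by edgeR and 0.00946 by DESeq2. Without the libraries low in mt-Rnr2 the log2 change was 1.19 ± 0.29 (adjusted p 0.0737), and without Aged CTRL 2 alone 1.04. The other transcription factors (Irf1, Irf8, Irf9 and Stat2) had log2 changes from -0.58 to 0.56.

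Of the sensors, Zbp1, which binds nucleic acid in the Z form, had a log2 change of 1.72 ± 0.59 (SE, adjusted p 0.313). It lay at 2.03 to 12.6 CPM in Young CTRL (median 5.65) and at 4.59 to 71.6 CPM in Aged CTRL (median 9.62). The highest value of Aged CTRL was that of library 2, and the next was 17.0 CPM. Without Aged CTRL 2 the log2 change was 0.63. Ifih1, or MDA5, a sensor of long double-stranded RNA, had medians of 20.6 and 24.8 CPM and a log2 change of 0.27 ± 0.23 (adjusted p 0.874), which was 0.05 without Aged CTRL 2. Trim25, the ubiquitin ligase that activates RIG-I, had medians of 34.0 and 57.6 CPM and a log2 change of 0.55 ± 0.29 (adjusted p 0.642). Without the libraries low in mt-Rnr2 and with B cell markers as a covariate, a fit that called 0.882% of all genes, it was 0.76 ± 0.18 with an adjusted p of 0.0455.

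Usp18, which removes Isg15 from proteins and blocks the type I receptor, lay at 1.74 to 4.82 CPM in Young CTRL (median 3.79) and at 3.97 to 10.5 CPM in Aged CTRL (median 6.30). Of the 6 Aged CTRL libraries, only Aged CTRL 3 was within the range of Young CTRL. Its fitted log2 change was 0.86 ± 0.33 (SE, adjusted p 0.402).

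Psmb8, a catalytic subunit of the immunoproteasome (chr17:34197721-34201454), lay at 36.4 to 92.8 CPM in Young CTRL (median 54.3) and at 54.5 to 335 CPM in Aged CTRL (median 60.5). Its log2 change of 0.84 ± 0.41 (adjusted p 0.59) rested on Aged CTRL 2, at 335 CPM. It was 0.03 without that library and -0.05 without the 4 libraries low in mt-Rnr2. Gbp3, a guanylate-binding GTPase, lay at 14.8 to 26.8 CPM in Young CTRL (median 16.3) and at 9.11 to 73.2 CPM in Aged CTRL (median 18.6). Aged CTRL 2 was again the highest. Gbp3 had a log2 change of 0.62 ± 0.35 (adjusted p 0.69), and 0.05 without that library.

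By role, leaving out the 4 libraries low in mt-Rnr2 gave a median of 0.76 for the antiviral effectors and 0.42 for the sensors in the age comparison, and gave -0.05 for the immunoproteasome genes and -0.01 for the GTPases. With B cell markers as a covariate the medians were 0.77 for antiviral effectors and 0.28 for the immunoproteasome genes. The limma-voom fit gave smaller age changes than edgeR for the effectors described singly. Its log2 changes were 0.57 for Isg15, 0.39 for Ifit1, 0.54 for Ifi44 and 0.79 for Bst2. For Oas2, Oasl2, Rsad2 and Rtp4 they were 1.70, 0.58, 0.60 and 0.56. Macrophage markers, the sum of 9 genes, lay at 615 to 1698 CPM in Young CTRL (median 834) and 917 to 2028 CPM in Aged CTRL (median 1463). The 4 neutrophil markers had medians of 29.3 and 46.2 CPM, and the 4 endothelial ones 495 and 653 CPM. Their part in the values above was not tested.

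**Figure D3:**
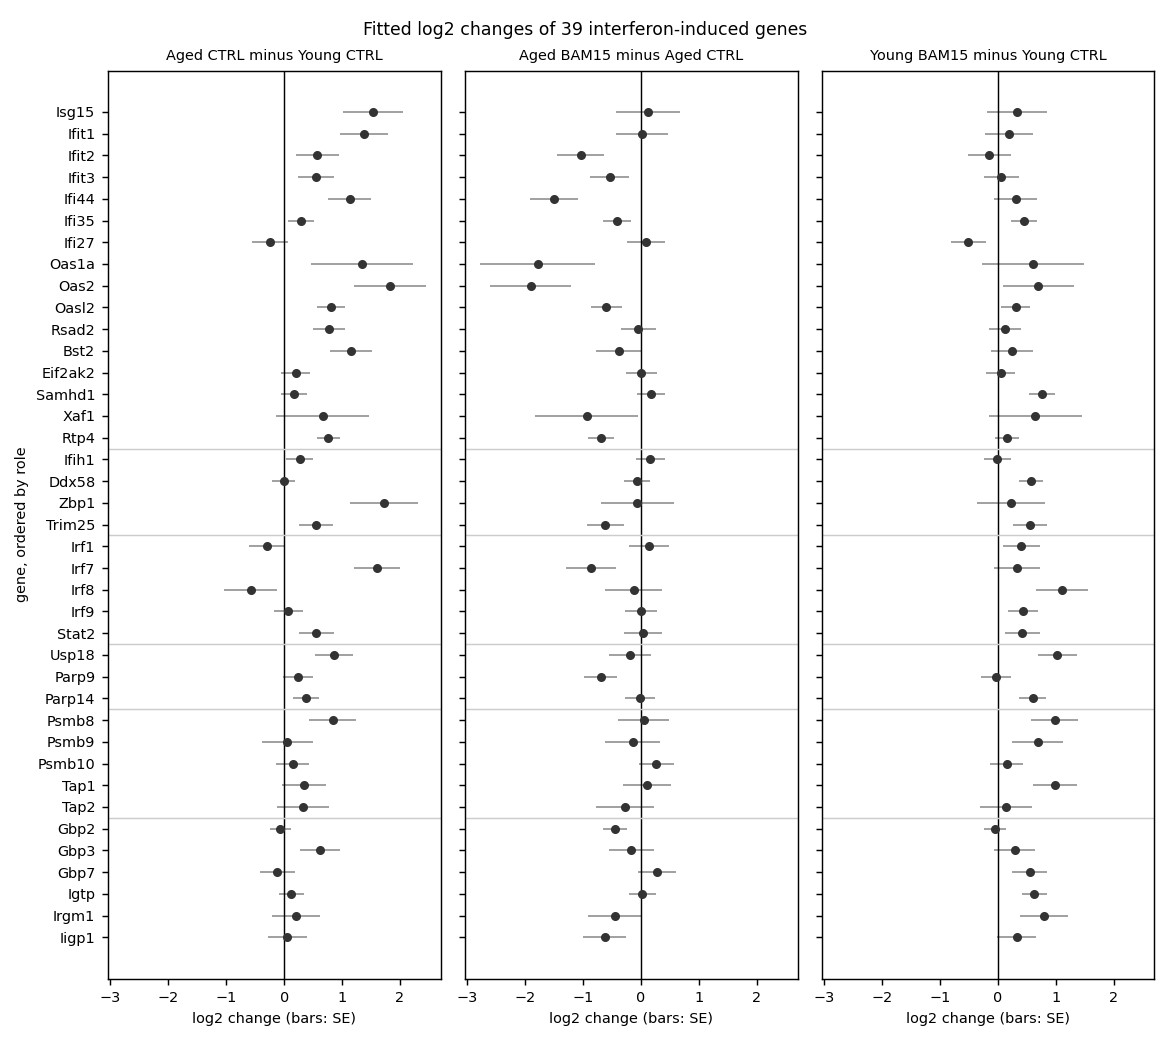
Fitted log2 changes (points) with SE (bars) of the 39 genes in 3 comparisons, on a common axis, ordered by role with lines between roles. Most antiviral effectors lie right of 0 with age, 11 of 16 lie left of 0 for Aged BAM15 minus Aged CTRL, and all 5 immunoproteasome and transport genes lie right of 0 for Young BAM15 minus Young CTRL.

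The second comparison asks how BAM15 differs from CTRL in aged mice, and it shares the Aged CTRL libraries with the first, so that their values are set side by side and not counted against each other. Antiviral effectors had a median log2 change of -0.48, with 11 of 16 below 0. Immunoproteasome and transport genes had a median of 0.05. Ifi44, Rtp4 and Oas2 had the smallest p values, with log2 changes of -1.50, -0.70 and -1.91. None of the 39 genes passed edgeR's test, as none (0%) of the 15939 genes tested did. At an unadjusted p under 0.05 it gave 7, all lower (Ifit2, Ifi44, Oas2, Oasl2, Rtp4, Parp9 and Gbp2), where 4.59% of all genes were lower, 4.5% higher and 9.1% either. DESeq2 called 1 of the 39 (Ifi44), where it called 0.662% of all genes. The 2 of 39 that limma-voom called (Rtp4 and Bst2) are no larger a share than the 6.06% it called of all genes. Over the 39 genes, 13 had a positive change (33.3%, against 51.7% of all genes), and the median was -0.14 against 0.02.

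Ifi44 lay at 6.10, 6.33, 6.13, 6.22 and 5.30 CPM in the 5 Aged BAM15 libraries, against the 4.67 to 29.7 CPM of Aged CTRL. The Aged BAM15 libraries thus lay within a narrow band, and only Aged CTRL 1 lay below it. The log2 change of -1.50 ± 0.42 (SE) had a p of 0.00136 and an adjusted p of 0.257 by edgeR, and an adjusted p of 0.0478 by DESeq2. It was -1.26 ± 0.51 without the libraries low in mt-Rnr2 and -1.53 ± 0.42 with B cell markers as a covariate.

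Rtp4 lay at 16.7, 35.1, 21.1, 25.4 and 31.5 CPM in Aged BAM15, against 28.3 to 54.9 CPM in Aged CTRL. The highest were Aged BAM15 2 and 5, both low in mt-Rnr2, and these alone overlapped Aged CTRL. Rtp4 had a log2 change of -0.70 ± 0.23 (adjusted p 0.345 by edgeR, 0.0196 by limma-voom). Without the libraries low in mt-Rnr2 it was -0.92 ± 0.25, and Rtp4 and Oas1a were then the only 2 of the 39 genes whose 3 Aged BAM15 values lay below all 5 Aged CTRL values, where 3.5% of all genes did.

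Oas2 lay at 3.31, 0.413, 4.88, 3.98 and 0.231 CPM in Aged BAM15. The lowest values were those of the libraries low in mt-Rnr2, and the same was true in Aged CTRL and Young CTRL. Oas2 had a log2 change of -1.91 ± 0.70 (SE, adjusted p 0.403), and -1.48 ± 0.52 without those libraries. Irf7 lay at 9.14, 47.2, 20.6, 21.0 and 26.8 CPM, with a log2 change of -0.87 ± 0.43 (adjusted p 0.564). Aged BAM15 2 overlapped the upper Aged CTRL libraries and Aged BAM15 1 was below all of them. Without Aged CTRL 2 the log2 change of Irf7 was -0.30.

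In contrast, Isg15 lay at 11.5, 96.0, 23.0, 16.9 and 50.1 CPM and Ifit1 at 19.7, 20.4, 63.0, 36.0 and 42.5 CPM in Aged BAM15. Both spread over the Aged CTRL range, with group medians of 23.0 against 20.4 CPM for Isg15 and 36.0 against 30.2 CPM for Ifit1. Bst2 lay at 7.98, 33.9, 7.56, 16.0 and 35.3 CPM in Aged BAM15, with the libraries low in mt-Rnr2 highest. Its log2 change was -0.39 ± 0.40 by edgeR (adjusted p 0.818) and -1.09 by limma-voom (adjusted p 0.0357). By edgeR it was -0.10 without Aged CTRL 2 and -1.04 without the libraries low in mt-Rnr2.

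Trim25 lay at 36.4, 19.8, 46.0, 47.0 and 17.0 CPM in Aged BAM15 and at 15.7 to 68.7 CPM in Aged CTRL (median 57.6). Its low values were again those of the libraries low in mt-Rnr2, in both groups. Trim25 had a log2 change of -0.62 ± 0.32 (SE, adjusted p 0.582). Parp9, a partner of the ubiquitin ligase Dtx3l, lay at 33.6, 12.5, 34.4, 26.6 and 22.6 CPM in Aged BAM15, against 19.2 to 53.6 CPM in Aged CTRL (median 47.6). Library 2 lay below all Aged CTRL libraries and the other 4 within their range. The log2 change of Parp9 was -0.69 ± 0.29 (adjusted p 0.465).

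Gbp2, a GTPase that coats the vacuoles of intracellular microbes, lay at 39.4, 30.3, 43.4, 33.7 and 33.1 CPM in Aged BAM15 and at 40.2 to 55.6 CPM in Aged CTRL (median 50.2). Only Aged BAM15 3 reached into the Aged CTRL range. Gbp2 had a log2 change of -0.44 ± 0.21 (SE, adjusted p 0.525). Psmb10, another catalytic subunit of the immunoproteasome, lay at 60.3, 121, 72.0, 70.2 and 104 CPM in Aged BAM15 and at 46.4 to 172 CPM in Aged CTRL (median 49.9), with Aged CTRL 2 highest. Its log2 change of 0.27 ± 0.31 (adjusted p 0.845) became 0.75 without Aged CTRL 2 and 0.10 without Aged BAM15 2.

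By role and without the libraries low in mt-Rnr2, which left 3 Aged BAM15 and 5 Aged CTRL libraries, the medians were -0.45 for antiviral effectors and 0.41 for immunoproteasome and transport genes. B cell markers summed to 1.84 to 330 CPM in Aged BAM15 (median 153) and 5.11 to 202 CPM in Aged CTRL (median 10.5). With them as a covariate the medians were -0.47 and -0.01. Macrophage markers lay at 618 to 1505 CPM in Aged BAM15, with a median of 981, against the median of 1463 CPM in Aged CTRL. The neutrophil markers had medians of 21.1 CPM in Aged BAM15 and 46.2 CPM in Aged CTRL, and the endothelial ones 453 and 653 CPM. The part of these 3 marker lists in the values was not tested.

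The third comparison asks how BAM15 differs from CTRL in young mice, and it shares the Young CTRL libraries with the first. Immunoproteasome and transport genes had the highest median of the 6 roles, a log2 change of 0.69 with all 5 above 0, and the antiviral effectors had one of 0.28. Samhd1, Usp18 and Igtp had the smallest p values. None of the 39 genes passed edgeR's test, as none (0%) of all genes did. At an unadjusted p under 0.05 it gave 8, all higher (Samhd1, Ddx58, Irf8, Usp18, Parp14, Psmb8, Tap1 and Igtp), where 6.18% of all genes were higher, 6.88% lower and 13.1% either. DESeq2 called 0 of the 39, against 1.02% of all genes, and limma-voom 3 (Psmb8, Samhd1 and Tap1), where it called 3.96% of all genes. Over the 39 genes, 34 had a positive change (87.2%, against 52.7% of all genes), and the median was 0.33 against 0.03.

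Lymphocyte markers of the same libraries are given beside these values. The 9 B cell markers summed to 2.70 to 355 CPM in Young CTRL (median 3.54) and to 2.37 to 1280 CPM in Young BAM15 (median 418). The 7 T cell markers had medians of 11.0 and 129 CPM. The 4 genes listed for plasmacytoid dendritic cells (Siglech, Ccr9, Pacsin1 and Ly6d) had medians of 3.71 and 89.0 CPM. Their highest sum, 386 CPM, was in Young CTRL 1, which had the skin keratinocyte marker Krt14 at 840 CPM. How far this sum reflects that cell type was not tested. Neutrophil markers had medians of 29.3 and 11.7 CPM, endothelial ones 495 and 698 CPM and adipocyte ones 32497 and 21209 CPM, and their part was not tested. None of the B cell, T cell or dendritic cell markers was at 0 in all libraries of a group. B cell markers were above 2 mean log2 CPM in 5 of 6 Young BAM15 but 2 of 7 Young CTRL libraries. In young mice, BAM15 and lymphocyte content therefore cannot be told apart, and the values with the covariate below do not separate them.

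Irf8, a factor of B cells and of myeloid and dendritic cells, lay at 50.9 to 147 CPM in Young CTRL (median 93.7) and at 25.1 to 371 CPM in Young BAM15 (median 165). The lowest Young BAM15 library was number 1, which had B cell markers at -1.56 mean log2 CPM. The highest was number 5, which had them at 6.65. Irf8 had a log2 change of 1.10 ± 0.45 (SE, adjusted p 0.311), and with B cell markers as a covariate it was 0.07.

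Psmb8 lay at 66.8 to 217 CPM in Young BAM15 (median 109), against a median of 54.3 CPM in Young CTRL. Young BAM15 1 was again lowest and Young BAM15 5 highest. Psmb8 had a log2 change of 0.98 ± 0.41 (adjusted p 0.311 by edgeR, 0.0355 by limma-voom), and 0.27 with the covariate. Tap1, a subunit of the transporter that feeds peptides to class I molecules (chr17:34187553-34197225), lay at 14.8 to 55.4 CPM in Young CTRL (median 27.2) and at 26.3 to 122 CPM in Young BAM15 (median 63.2). Its log2 change was 0.99 ± 0.38 (adjusted p 0.287 by edgeR, 0.0472 by limma-voom), and 0.22 with the covariate. In both genes the lowest Young BAM15 library lay inside the Young CTRL range.

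Samhd1, which breaks down deoxynucleotides and so limits retroviruses (chr2:157097533-157135265), lay at 74.3 to 147 CPM in Young CTRL (median 84.6) and at 85.1 to 272 CPM in Young BAM15 (median 161). It had the smallest p of the 39 genes here, 0.00271, with a log2 change of 0.76 ± 0.23 and adjusted p values of 0.201 by edgeR and 0.0348 by limma-voom. With the covariate the log2 change was 0.33. Usp18 lay at 3.03 to 11.8 CPM in Young BAM15 (median 7.27), with a log2 change of 1.03 ± 0.33 (p 0.00505, adjusted p 0.246) and 0.46 with the covariate. Young BAM15 1 was the lowest library for each of these 5 genes.

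**Figure D4:**
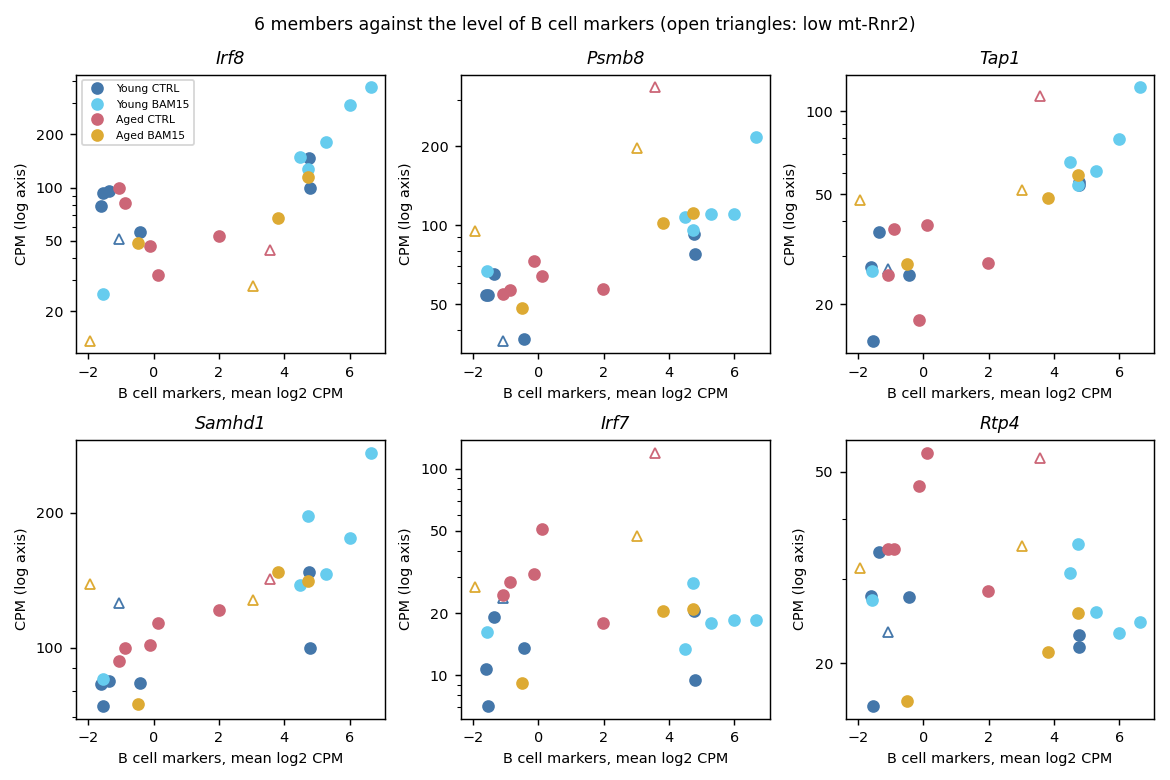
Levels of 6 genes (CPM, log axes) against the mean log2 CPM of 9 B cell markers in each of the 24 libraries, coloured by group, with open triangles for libraries low in mt-Rnr2. Over all 24 libraries, Irf8, Tap1 and Samhd1 have their highest value in Young BAM15 5, the library with most B cell markers (6.65). Psmb8 and Irf7 have theirs in Aged CTRL 2 and Rtp4 in Aged CTRL 6. Within Young BAM15, Psmb8 is also highest in library 5.

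Ddx58, the gene of RIG-I, a sensor of RNA with triphosphate ends (chr4:40203773-40239828), lay at 15.5 to 28.0 CPM in Young CTRL (median 24.1) and at 28.3 to 40.1 CPM in Young BAM15 (median 35.1). It was the only 1 of the 39 genes whose 2 groups did not overlap here, where 0.54% of all genes did not overlap in that direction. The fit gave a log2 change of 0.57 ± 0.20 (SE, adjusted p 0.271), and 0.56 with B cell markers as a covariate.

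Igtp, a GTPase of the immunity-related family, lay at 15.5 to 23.6 CPM in Young CTRL (median 20.9) and at 20.9 to 42.8 CPM in Young BAM15 (median 30.3). The groups overlapped by Young BAM15 1 alone. Its log2 change of 0.63 ± 0.22 (adjusted p 0.268) was 0.59 with the covariate. Igtp and Irgm2 overlap on the same strand in the annotation, so reads of the one may be counted for the other.

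Parp14, an ADP-ribosyltransferase that acts on signalling proteins, had a median of 45.7 CPM in Young CTRL, against 72.1 CPM in Young BAM15, and a log2 change of 0.60 ± 0.23 (adjusted p 0.287). Gbp7 had a log2 change of 0.55 ± 0.31 (adjusted p 0.449). Irf9, the DNA-binding partner of Stat2, had one of 0.43 ± 0.25 (adjusted p 0.473). Irf9 overlaps Rnf31 on the same strand, so its counts are uncertain in the same way.

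Irf1, a factor induced by type II interferon, had a log2 change of 0.41 ± 0.31 (adjusted p 0.601). It was 0.11 with the covariate, 0.25 without Young BAM15 5 and 0.68 without Young CTRL 4. Ifi27, a mitochondrial and nuclear-envelope protein, went the other way, at 309 to 948 CPM in Young CTRL (median 493) and 254 to 521 CPM in Young BAM15 (median 390). Its log2 change was -0.51 ± 0.31 (adjusted p 0.486), -0.15 with the covariate and -0.32 without Young CTRL 4.

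With B cell markers as a covariate the role medians in young mice were 0.19 for antiviral effectors, 0.17 for sensors, 0.11 for transcription factors, 0.44 for Usp18 with Parp9 and Parp14, 0.19 for immunoproteasome and transport genes and 0.25 for GTPases. Without the libraries low in mt-Rnr2, of which Young CTRL 4 is the one in these 2 groups, they were 0.25, 0.51, 0.47, 0.50, 0.50 and 0.32 in the same order.

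**Figure D5:**
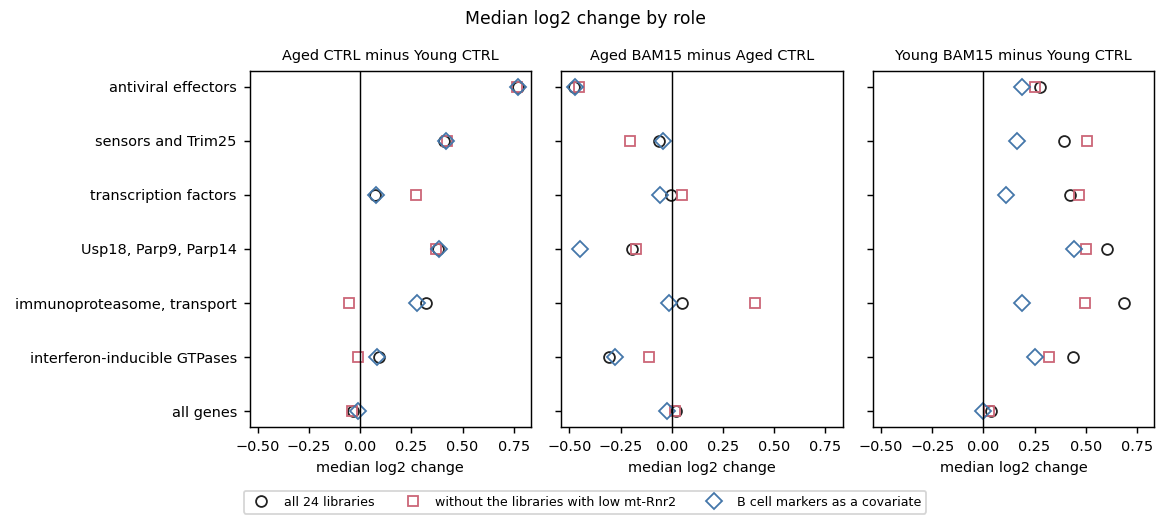
Median log2 change (horizontal axis) of the genes of each of 6 roles and of all genes tested (rows), in 3 comparisons, with all 24 libraries (circles), without the libraries low in mt-Rnr2 (squares) and with B cell markers as a covariate (diamonds). In the settings drawn, the antiviral effectors stay between 0.76 and 0.77 with age. The immunoproteasome genes move from 0.69 to 0.19 in young mice with the covariate.

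The last comparison is the difference between the log2 change with BAM15 in aged mice and that in young mice. It is made from the same libraries as the BAM15 comparisons above and is not a separate result. In young mice BAM15 and lymphocyte content cannot be told apart, so the difference cannot be assigned to BAM15 either. Of the 39 genes, 36 had a lower change in aged than in young mice, and 3 a higher one (7.69%, against 47.5% of all genes). The median difference was -0.63 on the log2 scale, against -0.04 for all genes. None of the 39 genes passed edgeR's test, as none (0%) of all genes did, and the smallest adjusted p among the 39 was 0.899. At an unadjusted p under 0.05 edgeR gave 8, all negative, where 1.85% of all genes were negative, 3.22% positive and 5.08% either. DESeq2 and limma-voom called 0 of the 39, against 0.0126% and 0% of all genes.

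Ifi44 had a log2 difference of -1.81 ± 0.55 (SE, p 0.00313), the smallest p of the 39 genes. Its median was 8.34 CPM in Young CTRL, 8.88 CPM in Young BAM15, 15.7 CPM in Aged CTRL and 6.13 CPM in Aged BAM15. Irf7 had a difference of -1.20 ± 0.58, and -0.63 without Aged CTRL 2. Trim25 had one of -1.17 ± 0.43, with medians of 34.0 and 49.7 CPM in Young CTRL and Young BAM15.

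Usp18 had a difference of -1.22 ± 0.49, with medians of 3.79, 7.27, 6.30 and 6.80 CPM in Young CTRL, Young BAM15, Aged CTRL and Aged BAM15. Psmb8 had one of -0.94 ± 0.60, which was -0.13 without Aged CTRL 2 and -0.28 with the covariate. Of the GTPases, Irgm1, which guards membranes of the cell's own vacuoles, had a difference of -1.25 ± 0.62. Iigp1, which attacks parasite vacuoles, had one of -0.95 ± 0.50, and lay at 31.2, 44.3, 42.8, 46.0 and 50.0 CPM in Aged BAM15, against 25.1 to 122 CPM in Aged CTRL.

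For Oas2, Xaf1, Parp9 and Psmb9, 4 of the 39 genes, all 4 libraries low in mt-Rnr2 lay below all of the other 20, a share close to the 8.76% of all genes that did so. No gene of the set lay above all of the other 20, where 6.91% of all genes did. Isg15, in contrast, averaged 69.0 CPM in these 4 libraries and 16.1 CPM in the other 20. Of these 4, Aged CTRL 2 and Aged BAM15 2 and 5 lay at 115, 96.0 and 50.1 CPM, but Young CTRL 4 at 14.5 CPM. Only those from aged mice were thus high.

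Upstream of these genes, the ligands could hardly be read. Of 11 interferon genes listed, Ifng alone was in the count table, and the filter on low counts removed it. All 6 receptor genes passed, and edgeR, DESeq2 and limma-voom called none in any comparison. By edgeR, 2 had an unadjusted p under 0.05 with age (8.43% of all genes), 1 of them higher, and 0 in the other comparisons. Ifngr1, a chain of the type II receptor, had means of 225 ± 40.1 CPM in Young CTRL, 247 ± 46.9 in Young BAM15, 247 ± 50.5 in Aged CTRL and 239 ± 31.2 in Aged BAM15 (SD, n = 7, 6, 6 and 5). Ifnar2, of the type I receptor, had 109 ± 26.0, 107 ± 14.4, 109 ± 23.7 and 78.7 ± 29.5 CPM in the same order. Group means of both receptors lay within 1 SD of each other among Young CTRL, Young BAM15 and Aged CTRL.

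Of 16 signal transduction genes edgeR called none. At an unadjusted p under 0.05, 2 were higher with age (4.56% of all genes), 2 lower with BAM15 in aged mice (4.59% of all genes) and 5 higher with BAM15 in young mice (6.18% of all genes). Tmem173, or STING, a relay of DNA sensing, was called by limma-voom in young mice, where it called 3.96% of all genes. By edgeR the log2 change of Tmem173 was 1.01 ± 0.36 (adjusted p 0.271). Jak1 and Stat3, the most abundant of the list in CPM, had means of 316 ± 31.2 and 208 ± 17.6 CPM in Young CTRL, against 287 ± 58.2 and 247 ± 63.3 CPM in Aged CTRL (SD). Tlr7, an endosomal sensor of single-stranded RNA, had the smallest adjusted p of the list with age, 0.0960 by edgeR. It had a log2 change of 1.32 ± 0.32 and a median of 3.23 CPM in Young CTRL, against 8.30 CPM in Aged CTRL. Aged CTRL libraries lay at 4.97 CPM or above, and the Young CTRL ones at 4.89 CPM or below, so the groups did not overlap, where 0.333% of all genes did not in that direction. DESeq2 and limma-voom called Tlr7 at adjusted p values of 0.00747 and 0.0316, where they called 1.15% and 0.91% of all genes.

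Of 6 negative regulators edgeR and DESeq2 called none, and limma-voom called Irf2 in young mice, where it called 3.96% of all genes. By edgeR, 2 had an unadjusted p under 0.05, both higher with BAM15 in young mice (6.18% of all genes). Irf2, which competes with Irf1 for its sites, had a mean of 57.0 ± 17.0 CPM in Young CTRL, against 102 ± 21.3 CPM in Young BAM15 (SD). Ptpn6, a phosphatase abundant in blood cells, had 31.7 ± 32.8 and 111 ± 85.5 CPM.

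Another 69 interferon-induced genes outside the set passed the filter, and edgeR called none. DESeq2 called 2 with age, 2 with BAM15 in aged mice and 1 in young mice, where it called 1.15%, 0.662% and 1.02% of all genes. By limma-voom the counts were 1, 3 and 6, against 0.91%, 6.06% and 3.96% of all genes. With age, 12 of the 69 had an unadjusted p under 0.05, all higher (4.56% of all genes), and the median log2 change was 0.31. With BAM15 in aged mice 3 did, all lower, a share near the 4.59% of all genes, with a median of -0.04. In young mice 21 did, all higher (6.18% of all genes), with a median of 0.50. For the difference between the changes in aged and in young mice, 9 did, all negative (1.85% of all genes), with a median of -0.58.

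Lgals3bp, a secreted glycoprotein of this list, had a log2 change of 1.10 with age (adjusted p 0.176 by edgeR, 0.0468 by DESeq2), which was 0.70 without Aged CTRL 2, and of -1.53 ± 0.35 in aged mice with BAM15 (adjusted p 0.219 by edgeR, 0.00879 by DESeq2 and 0.00197 by limma-voom). Its medians were 220 CPM in Young CTRL, 378 CPM in Aged CTRL and 146 CPM in Aged BAM15. B2m, the light chain of class I molecules, was called lower with BAM15 in aged mice by DESeq2 and limma-voom, but not by edgeR. DESeq2 called 0.662% and limma-voom 6.06% of all genes there. B2m had means of 3862 ± 689 CPM in Young CTRL, 4869 ± 1159 in Aged CTRL and 3045 ± 466 in Aged BAM15 (SD). H2-K1, a class I heavy chain, had 1541 ± 873, 1925 ± 1538 and 1860 ± 1104 CPM, and its copies of near-identical sequence make its counts uncertain.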

How the data were processed

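Total RNA of 24 samples was sequenced from 3′ ends (QuantSeq, per the labels). The authors deposited raw counts for Ensembl genes, and also signal values, the same counts over 1 size factor per library (largest deviation 5.82e-09). The submitters' processing notes name R 3.4.3, DESeq2 1.18.1 and GRCm38. No source used here names the aligner, the counter or its use of strand, so counts of overlapping genes (Parp9 and Dtx3l, Irf7 and Phrf1, Tap1 and Psmb9) and near-identical copies (Ifit3 and Ifit3b, Oas1a and its relatives) are uncertain.

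Only the counts were analysed. filterByExpr kept 15939 genes, all 39 of the set among them, and left out 1602. With edgeR 4.0.16 (R 4.3.3), a quasi-likelihood F-test with TMM factors and robust estimation was fitted to all 24 libraries with a group term (20 residual degrees of freedom), and p-values were adjusted over 15939 genes (Benjamini-Hochberg), with a call at an adjusted p under 0.05. The SE is the log2 change divided by the root of F. CPM are counts scaled to a TMM-adjusted library total of 1 M. Positions are those of GENCODE M21 on GRCm38, which matched 17494 genes. Scripts were tested on simulated data. Alternatives were other size factors and filters, DESeq2 1.42.0, limma-voom with sample quality weights (limma 3.58.1) and a fit to the groups compared. Others were the replicate number as a block, libraries left out and B cell markers as a covariate. The quality weights let libraries count unequally in every limma-voom value given.

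The genes and lists were chosen with earlier results of these data known. Values are given for genes called by edgeR (0 of the set), the 3 of highest mean CPM and the smallest p in each role and comparison, and from other lists the 2 of highest CPM. Of the signal transduction list, 1 gene is not reported here. Isg15, Ifit1, Oas2, Bst2, Oasl2, Ifi44 and Trim25 with age, Rtp4 in aged mice, Tlr7, Tmem173 and Lgals3bp were named after their values were seen.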

Additional observations from a re-analysis of the deposited data

Results flagged for a closer look

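A library far from the rest of its group was sought in 120 sets of values. These were 1 for each of the 30 genes described singly and each of the 4 groups. By Dixon's criterion on a log scale, met by about 1 set in 20 by chance, 7 were found. On that scale Zbp1 and Isg15 in Aged CTRL 2 did not meet it, at 71.6 and 115 CPM with next values of 17.0 and 38.2 CPM. Psmb8 and Psmb10, at 335 and 172 CPM, were far above the rest of Aged CTRL in library 2, where the next values were 72.9 and 61.0 CPM. In the same library Trim25 was far below, at 15.7 CPM against 42.3 CPM for the next. This library is also low in mt-Rnr2. Samhd1 and Tap1 were far below the rest of Aged BAM15 in library 1, at 75.0 and 28.0 CPM, where the next values were 128 and 47.8 CPM. Ifi44 was lowest in Aged BAM15 5, at 5.30 CPM, where the other 4 began at 6.10 CPM. Oasl2 was highest in Young CTRL 2, at 20.7 CPM against 11.5 CPM for the next.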

How the results depend on the processing

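The counts of the 39 genes called by edgeR were 0 in all 4 comparisons, and stayed 0 when each library was left out in turn. With age DESeq2 called 2 of them, where it called 1.15% of all genes. Leaving out the libraries low in mt-Rnr2 gave 1 (Oas2), against 0.477% of all genes. Doing so with B cell markers as a covariate, an alternative chosen after seeing the data, gave 3 (Trim25, Irf7 and Oas2), against 0.882% of all genes. With BAM15 in aged mice DESeq2 called 1, against 0.662% of all genes, and limma-voom 2, no larger a share than its 6.06% of all genes. In young mice limma-voom called 3, where it called 3.96% of all genes. With the replicate number as a block no gene of the set was called, and the medians were 0.33, -0.07, 0.40 and -0.63 in the order of the report. The numbers are read as names: libraries with the same number had a median correlation of -0.04 over 33 pairs, against 0.00 over 182 other pairs, and 3 of 24 correlated best with their own number.

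Leaving out each library in turn gave medians of 0.28 to 0.49 with age, -0.33 to -0.03 with BAM15 in aged mice, 0.29 to 0.49 in young mice and -0.74 to -0.53 for the difference. The median difference was -0.34 by limma-voom. Without the 11 libraries with B cell markers above 2, which leaves 1 Young BAM15 library whose spread is assumed from the other groups, the medians were -0.50 in aged mice, 0.043 in young mice and -0.34 for the difference.

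Values were recomputed 1246 times for 46 changes of single genes, none of them called by edgeR with all 24 libraries. Of these values, 1219 kept their direction and stayed uncalled, which does not measure their size. The age change of Psmb8, 0.84, counts among them at 0.03 without Aged CTRL 2. Another 17 values passed the threshold in the alternative alone, and 10 changed sign. With age these were Ifih1 (-0.0011), Psmb8 (-0.038) and Gbp3 (-0.24) by limma-voom and Psmb8 (-0.053) without the libraries low in mt-Rnr2. In young mice without the libraries rich in B cell markers they were Samhd1 (-0.086), Irf8 (-1.58), Irf9 (-0.37) and Usp18 (-0.17), and Ifi27 (0.056) without low mt-Rnr2 and with the covariate. In aged mice with BAM15 it was Bst2 (0.0048) without the libraries rich in B cell markers. The cause of these sign changes was not tested.

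Over all genes, edgeR called 33 with age, against 179 by DESeq2, 145 by limma-voom, 18 in a fit to both groups alone, 5 with the block, 79 without low mt-Rnr2, 146 with the covariate as well, 8 without the libraries rich in B cell markers and 4 without the 2 libraries with Krt14 above 50 CPM. It called 0 in the other comparisons, where DESeq2 called 105, 161 and 2 and limma-voom 966, 631 and 0. Without single libraries the counts were 20 to 35 with age, 0 to 67 with BAM15 in aged mice and 0 to 1 in young mice, the 67 without Aged BAM15 1. A fit to the compared groups alone does not apply to the difference between both BAM15 changes, which needs all 4 groups. Oas1a rested on few reads, with at most 57 counts in a library and 0 in 3. These 3 were Young BAM15 6 and Aged BAM15 2 and 5. Both Aged BAM15 libraries are low in mt-Rnr2, and their depth was 18.4 and 20.7 M counts. Xaf1 was at 0 in 2 libraries, both low in mt-Rnr2.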
